A study of Mus musculus with 123 samples.

Results

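CC063/Unc is 1 inbred line of the Collaborative Cross (CC), a panel of recombinant inbred mice in which each line carries its own fixed mosaic of the genomes of several founder strains. The 4 mice labelled CC063/Unc, of 123 female mice in the series, were compared with the mice of 21 other CC strains. Mice arrived at 6 to 9 weeks of age, were kept on a synthetic chow for 2 weeks and then received a high-protein (HP) or a high-fat high-sucrose (HS) diet for 8 weeks, after which liver was taken following a 4-h fast and total RNA was hybridised to an Affymetrix Mouse Gene 2.1 ST array. CC063/Unc contributed 2 HP mice and 2 HS mice, and the other strains 61 HP mice and 57 HS mice; 1 further mouse, labelled CC059/TauUnc on the HS diet, was left out because its profile, centred on the panel, correlated with that of its labelled strain at r = 0.128 and with that of CC035/Unc at r = 0.74. The question was which liver genes set CC063/Unc apart whatever the diet, and whether its HP and HS livers differed in the way those of the other strains did.

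All values are log2 intensities, so that a difference of 1 is a doubling of intensity, and intensities of different genes are not comparable with each other. Of 10937 genes tested, a gene was called when its Benjamini-Hochberg adjusted p in limma was under 0.05. The 4 mice came from 1 strain, so that their spread contains no variation between strains. For part of the calls, the place of the CC063/Unc strain mean among the 22 strains is therefore given. For some, the adjusted p of a fit in which strain was a random block is added. Where no place is given, CC063/Unc was not always first or last. *Ces1b* ranked 3 from the highest, *Cyp2c69*, *Sult3a1*, *H2-T23*, *Cibar1* and *Vamp5* ranked 21, and *6430590A07Rik* ranked 20. The 4 profiles matched their label: over all genes each correlated with the mean of the remaining CC063/Unc mice at r of 0.6 to 0.663 after centring on the panel, against at most 0.098 with any other strain. Their array medians were 3.00 to 3.12, within the 2.97 to 3.16 of the other mice. Hepatocyte markers were at the level of the panel, with a summed level of 15.71 to 15.82 in CC063/Unc and 15.46 to 15.86 in the other mice.

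The liver is built mostly of hepatocytes, which carry out intermediary metabolism, secrete plasma proteins and detoxify foreign compounds through cytochrome P450 (Cyp) enzymes, esterases and transferases. Bile leaves through ducts lined by cholangiocytes, an epithelial cell type with keratins, adhesion proteins and the chloride channel CFTR. Inbred strains of mice are known to differ widely in hepatic Cyp and major histocompatibility complex (MHC) genes, several of which are present in some strains and defective in others.

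CC063/Unc livers differed from the rest of the panel in a limited number of genes, some of them by a large amount. In the fit with diet as a covariate, 460 genes (4.21% of those tested) were called, with 1.81% higher and 2.4%, or 262 genes, lower in CC063/Unc. The median size of the called differences was 0.67, and 24.2% of them reached 1. The CC063/Unc mean was the highest of the 22 strains for 33.3% of the called genes and the lowest for 41.8%, against 4.36% and 5.4% of all genes. By the same test, CC063/Unc was the 18th strain in number of called genes, in a range of 93 to 1397. This rank is a rough guide, since CC063/Unc had 4 mice and most strains 5 or 6. CC024/GeniUnc, also with 4 mice, had 1056 calls. With strain as a random block, 1.23% of genes were called. Leaving out 1 of the 4 mice left 228 to 319 calls, with the fewest without HP mouse 1 and 240 without HS mouse 2.

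**Figure D1:**
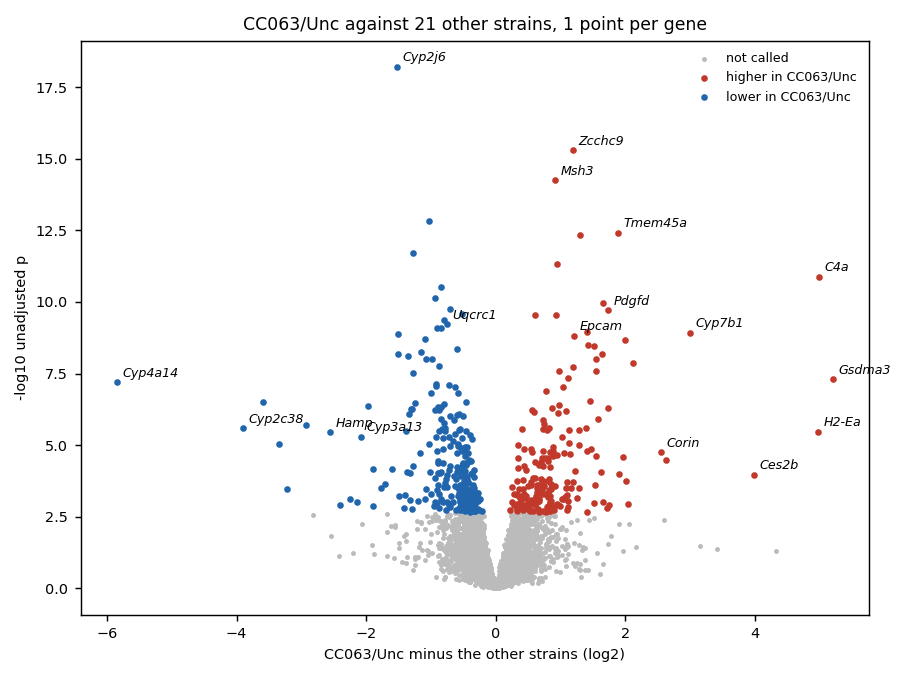
Each point is 1 of 10937 genes, with the CC063/Unc minus other strains difference (log2) on the x axis and −log10 of the unadjusted limma p on the y axis; red and blue points are the called genes, higher and lower. *Cyp4a14*, at −5.85, lies farthest to the left, and *Gsdma3*, *C4a* and *H2-Ea* lie farthest to the right.

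*C4a*, which encodes the sex-limited protein, a complement C4 paralog produced mainly in males, was 7.82 and 7.87 in the HS mice and 7.50 and 9.03 in the HP mice, against 0.70 to 8.10 with a median of 2.88 in the other mice. Only 2 other mice reached the lowest CC063/Unc value, and the difference was 4.98 ± 0.67 (SE, adjusted p = 1.58e-08). The next strain, CC036/Unc, averaged 6.98. *H2-Ea*, the alpha chain of the MHC class II E molecule, was 7.38 to 7.90 in the 4 mice and 1.72 at the median of the others (difference 4.97 ± 1.02, adjusted p = 0.000367). It was not particular to the strain: CC024/GeniUnc averaged 8.64, and 1 strain lay within 1 log2 unit of CC063/Unc. *Gsdma3*, a gasdermin, is added here because its difference of 5.2 was the largest of any called gene in this direction, although CC071/TauUnc, at 8.18, was above CC063/Unc.

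*Cyp7b1*, the oxysterol 7 alpha-hydroxylase of the alternative pathway of bile acid synthesis, was 10.52 and 10.29 in the HS mice and 9.69 and 10.60 in the HP mice. In the other mice it ranged from 5.69 to 9.78 with a median of 7.14, and the strain next in order, CC030/GeniUnc, averaged 9.24. The difference was 3.00 ± 0.46, an 8.00-fold higher intensity (adjusted p = 5.73e-07), and no other strain mean lay within 1 unit. *Ces2b*, a carboxylesterase, showed an on-or-off pattern, with 6.87 to 7.31 in CC063/Unc and a median of 2.29 in the others. CC063/Unc was 1 of 5 strains at the high level, since 4 other strain means lay within 1 unit and the highest, CC032/GeniUnc, averaged 7.14. *Corin*, the protease that activates pro-atrial natriuretic peptide in the heart, was 8.36 and 8.02 in the HS mice and 7.22 and 7.35 in the HP mice. The median of the others was 4.78 (difference 2.55 ± 0.57, adjusted p = 0.00138). Its high level was shared, since 4 other strain means lay within 1 unit and 14 other mice reached the lowest CC063/Unc value. CC041/TauUnc averaged 7.55, against 7.74 in CC063/Unc.

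The rest of the 14 genes with the largest differences among those called and led by CC063/Unc had differences of 1.62 to 2.11. They were *Fabp12*, of the fatty acid-binding protein family, *Ntrk2*, the receptor for brain-derived neurotrophic factor, *Elapor1*, *Asic5*, a bile acid-sensitive ion channel, *Tmem45a*, *Pdgfd*, a ligand of the platelet-derived growth factor receptor beta, *Smpd3*, a neutral sphingomyelinase, *Cyp4a12b*, a fatty acid omega-hydroxylase, *Ppp1r9a* and *Rdh9*, a retinol dehydrogenase. *Tmem45a* and *Pdgfd* separated completely. *Tmem45a* was 5.16 to 5.66 against at most 4.62 in every other mouse, and *Pdgfd* was 5.21 to 5.58 against at most 5.07. *Ntrk2* lost its call without HS mouse 2 (adjusted p = 0.0816), and *Rdh9* was called in 2 of the 4 fits that left out 1 mouse (highest adjusted p 0.0614).

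**Figure D2:**
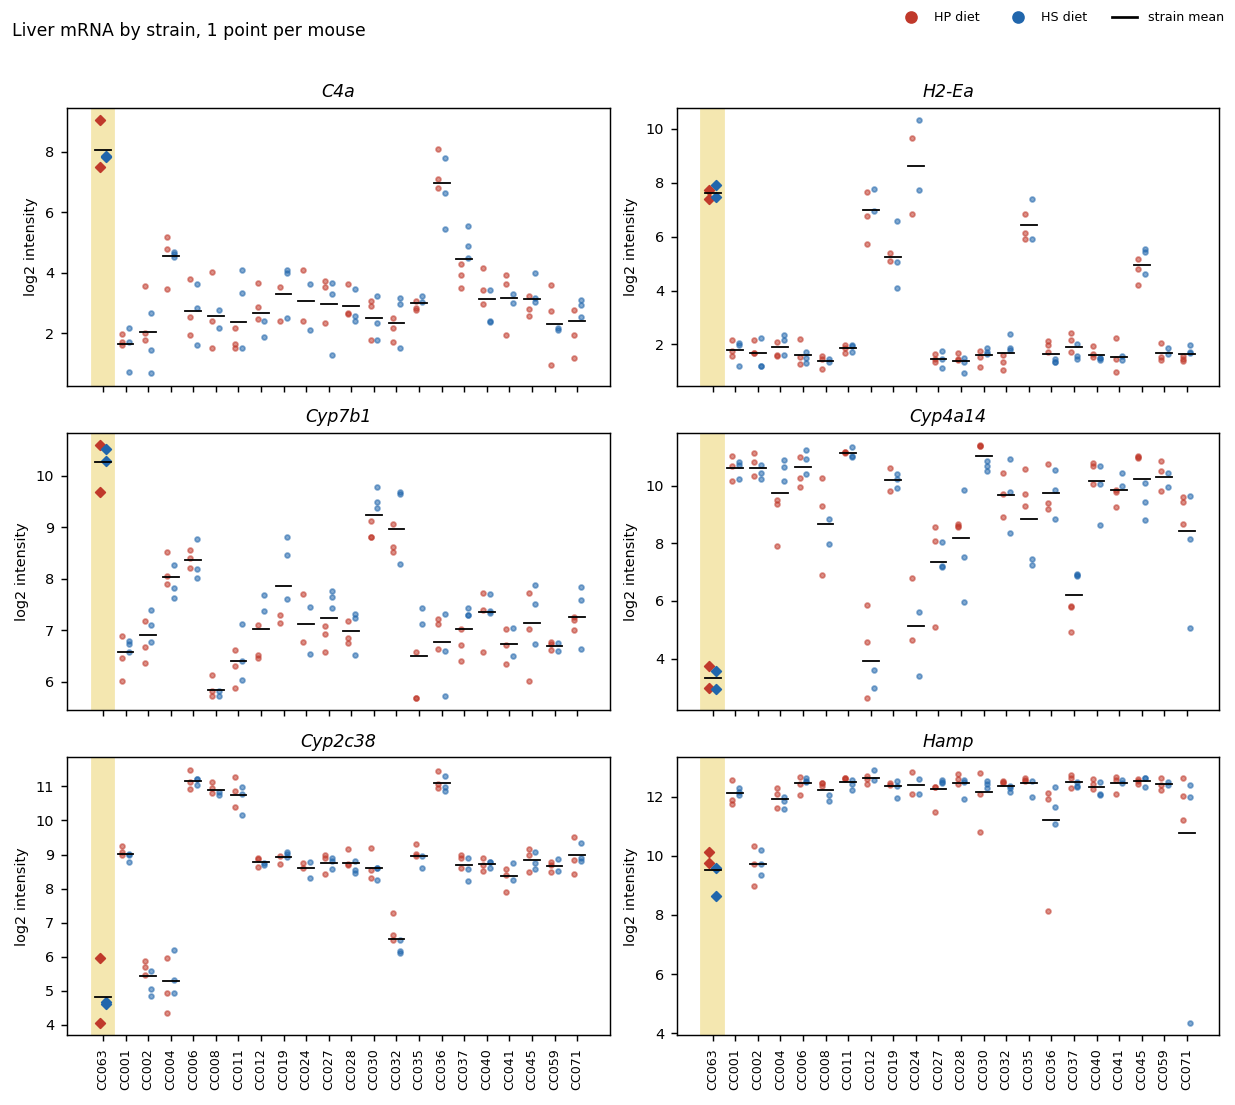
Log2 intensity of 6 genes in every mouse (red, HP diet; blue, HS diet; bar, strain mean), with CC063/Unc shaded at the left of each panel and the other strains in order of number. *C4a* and *Cyp7b1* are highest and *Cyp4a14*, *Cyp2c38* and *Hamp* lowest in CC063/Unc, while *H2-Ea* is high in several strains.

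*Cyp4a14*, a fatty acid omega-hydroxylase and a classic target of the nuclear receptor PPAR alpha, was 3.57 and 2.96 in the HS mice and 3.75 and 2.98 in the HP mice, near the array medians, whereas the other mice had a median of 9.84 and reached 11.40. Its difference was −5.85 ± 1.02 (adjusted p = 1.54e-05), which, with CC063/Unc this low on the array, is a difference of intensity and no exact measure of transcript, and CC012/GeniUnc, with a mean of 3.93, was the only strain within 1 unit. *Cyp2c38* was 4.68 and 4.62 in the HS mice and 4.07 and 5.96 in the HP mice, with a median of 8.78 in the others (difference −3.90 ± 0.79, adjusted p = 0.000315). CC004/TauUnc, at 5.28, was the nearest of 2 strains that shared the low level. *Cyp3a13*, of the drug-metabolising Cyp3a family, was 6.13 to 7 against a median of 8.94 (difference −2.07 ± 0.43, adjusted p = 0.000514). Its low level was shared by 4 other strains within 1 unit, with CC037/TauUnc at 7.01 against 6.61 in CC063/Unc.

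*Hamp* encodes hepcidin, the hormone that limits iron export into plasma. It was 8.65 and 9.58 in the HS mice and 9.74 and 10.12 in the HP mice, and 12.41 at the median of the other mice (difference −2.56 ± 0.53, adjusted p = 0.000373, and 0.0435 with strain as a random block). The low level was shared by CC002/Unc, with a mean of 9.72. The paralog *Hamp2*, whose sequence is closely related, was 8.15 to 9.16 in CC063/Unc and 2.07 to 10.23 with a median of 8.83 in the others, and was not called (difference of means 0.66, adjusted p = 0.819).

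The remaining genes of this group had differences of −2.25 to −1.34. They included *Nudt7*, a peroxisomal coenzyme A diphosphatase (5.45 and 7.02 on HS, 5.70 and 7.41 on HP, median of the others 8.5), *Gabbr2*, a subunit of the GABA B receptor, *Polr3g*, a subunit of RNA polymerase III, *Ces1e*, *Elmod3*, *Tmem106a* and the loci *BC023105* and *C130046K22Rik*. The calls of *BC023105* (highest adjusted p 0.12), *C130046K22Rik* (0.101) and *Ces1e* (0.0806) were lost in some or all fits without 1 CC063/Unc mouse, that of *BC023105* in all 4.

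In 9 genes (0.0823% of those tested) all 4 CC063/Unc mice lay above all other mice, and in 5 genes (0.0457%) all 4 lay below. The former count was 0 to 7 and the latter 0 to 8 in the other strains, with CC035/Unc (8), CC012/GeniUnc (7) and CC045/GeniUnc (6) above CC063/Unc in the latter. Most strains had 5 or 6 mice, and a strain with fewer mice meets this condition more easily. The higher set, named here after the count was seen, held the neighbours *Msh3*, a DNA mismatch repair protein, and *Zcchc9*, together with *Tmem45a*, *Pdgfd*, *Chmp4c*, *Col6a3*, a chain of collagen VI, *Scara3*, *Tspan3* and *Zfp810*. *Col6a3* was 5.6 to 5.74 in CC063/Unc and at most 5.44 elsewhere, with a difference of 1.30. The lower set held *Cyp2j6* and *Cyp2j9*, *Elmod3*, *Ndufc1*, a subunit of respiratory complex I, and *Sidt2*, a lysosomal membrane protein. *Ndufc1* was 4.14 to 4.45 in CC063/Unc and at least 4.74 in every other mouse.

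Genes of the bile duct epithelium were higher in CC063/Unc as a group. Of 4 tested members of the cholangiocyte list, 3 were called higher and none lower, against 4.21% of all genes called, and the median difference of the list was 1.18, against −0.02 over all genes. *Bicc1*, an RNA-binding protein whose loss causes cystic kidneys in mice, was 6.27 and 6.71 in the HS mice and 6.65 and 6.37 in the HP mice, against a median of 5.06 and a highest value of 6.47 in the others. The difference was 1.41 ± 0.21 (adjusted p = 5.5e-07), and only CC030/GeniUnc, with a mean of 6.29, came close. *Epcam*, an epithelial adhesion molecule, was 4.58 and 5.18 on the HS diet and 4.63 and 5.27 on the HP diet, and 3.72 at the median of the others (difference 1.21 ± 0.19, adjusted p = 6.6e-07). *Pkhd1*, which encodes the ciliary protein fibrocystin, was 6.08 to 6.50 against a median of 5.14 (difference 1.15 ± 0.26, adjusted p = 0.0016). The calls of all 3 held with strain as a random block and without each of the 4 mice. The transcription factor *Sox9* had a difference of 0.57 and was not called (adjusted p = 0.25).

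The other 5 list members on the array were too dim for the main test and were read without the filter on low values. *Cftr*, the chloride channel of the ducts, was 3.54 and 3.52 in the HS mice and 3.66 and 3.56 in the HP mice, and reached at most 2.76 in the other mice (difference 1.68, adjusted p = 8.11e-15 in the unfiltered fit). The tetraspanin *Tspan8* was 3.89 to 5.11 against a median of 3.15, and the tight junction protein *Cldn7* 1.55 to 2.61 against 1.31. Both were called in that fit, whereas the keratins *Krt19* (difference 0.31, adjusted p = 0.263) and *Krt7* (0.38, adjusted p = 0.34) were not. The summed intensity of all 9 members was 8.01 and 8.32 in the HS mice and 8.26 and 8.20 in the HP mice. It was 6.44 to 7.89 in the other mice, with a median of 7.07, so that the groups did not overlap. The strain next in order was CC030/GeniUnc, at 7.71. *Bicc1* and *Pkhd1*, with the highest intensities (CC063/Unc means 6.5 and 6.33), weighed most in this sum, so that it largely restates those 2 calls. *Sox9*, *Krt7* and *Krt19* (means 4.63, 3.77 and 2.96) weighed less. Of the other mice, 41, 46 and 40 reached the lowest CC063/Unc value of these genes. In a bulk sample, more cells of a type and more RNA per cell cannot be told apart.

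**Figure D3:**
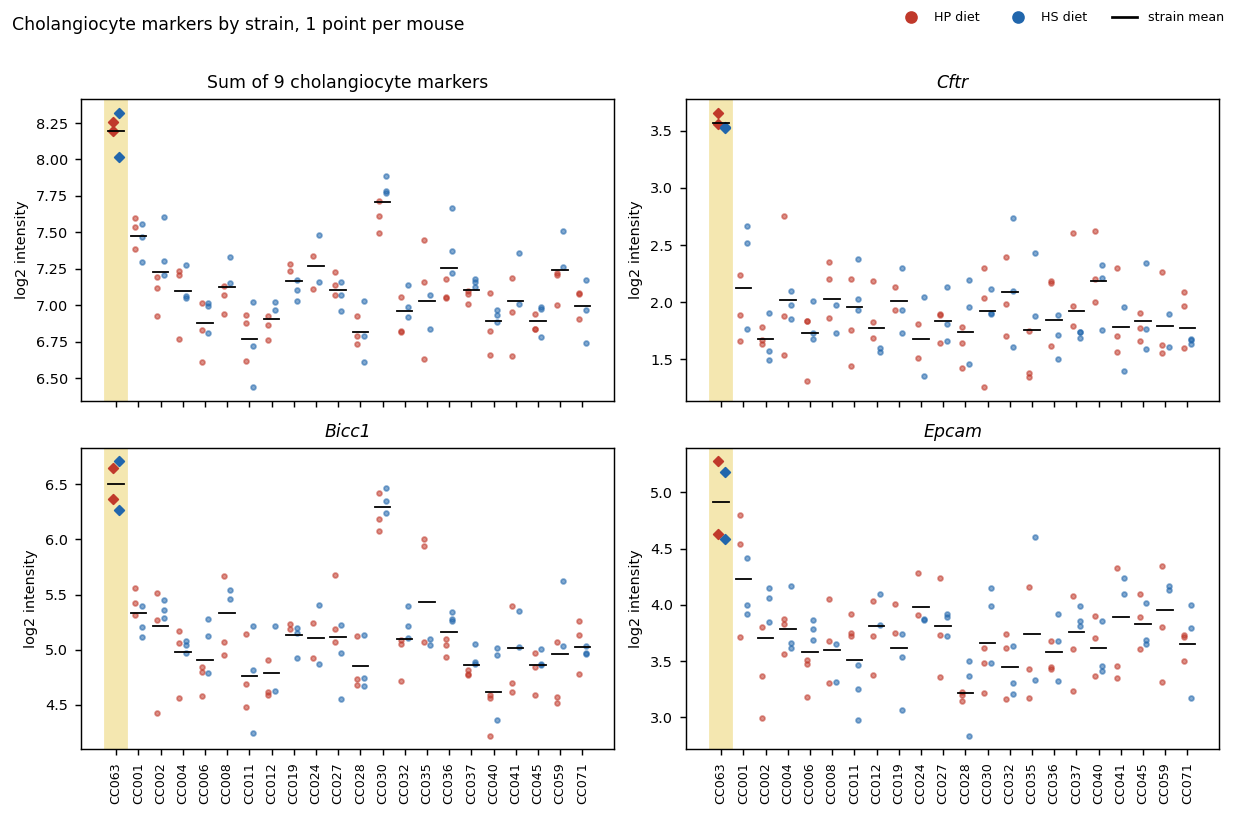
Log2 intensity in every mouse (red, HP diet; blue, HS diet; bar, strain mean) of the sum of 9 cholangiocyte markers and of *Cftr*, *Bicc1* and *Epcam*, with CC063/Unc shaded. The 4 CC063/Unc sums, 8.01 to 8.32, lie above every other mouse, and CC030/GeniUnc is next for the sum and for *Bicc1*.

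Reference promoters were looked up for *Bicc1*, *Epcam*, *Pkhd1*, *Cftr* and *Cyp2j6*, and 4 of 5 had an entry in the RefSeq table for GRCm38.p6, which holds the reference genome and not that of CC063/Unc. Those of *Pkhd1* and *Epcam* are shown because these genes moved together, each as 300 bases around the annotated start. Capitals mark GTTAAT, a part of the binding motif of the factor HNF1, in *Pkhd1* (chr1:20618008-20618307, minus strand) and the E-box CACGTG in *Epcam* (chr17:87635729-87636028, plus strand), searched on both strands.
Pkhd1: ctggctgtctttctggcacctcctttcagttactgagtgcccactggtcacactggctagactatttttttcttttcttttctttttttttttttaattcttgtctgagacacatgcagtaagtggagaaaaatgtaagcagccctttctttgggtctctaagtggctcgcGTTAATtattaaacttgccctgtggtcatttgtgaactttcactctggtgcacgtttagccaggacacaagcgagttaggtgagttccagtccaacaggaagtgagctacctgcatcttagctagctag
Epcam: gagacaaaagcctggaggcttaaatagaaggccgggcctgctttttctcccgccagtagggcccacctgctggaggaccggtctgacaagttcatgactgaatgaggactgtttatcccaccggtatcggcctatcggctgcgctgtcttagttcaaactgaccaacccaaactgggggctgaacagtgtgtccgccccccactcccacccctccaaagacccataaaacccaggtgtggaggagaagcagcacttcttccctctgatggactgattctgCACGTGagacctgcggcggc
Each motif matched 1 time in its window. GTTAAT was present in 7.1% and CACGTG in 7.15% of the 32851 promoters of the table, so that neither is rare.

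The markers of other cell types did not shift in the same way. Of 15 stellate cell and fibroblast markers, 1 was called, with a median difference of 0.12. This was the fibrillar collagen *Col3a1*, which was 6.17 to 6.93 against a median of 5.52 (difference 0.94 ± 0.28, adjusted p = 0.0326), and which was called in 1 of the 4 fits that left out 1 mouse (highest adjusted p 0.24, without HS mouse 2). CC063/Unc also had the highest strain mean of *Col1a1* (difference 0.88, adjusted p = 0.0594) and *Lum* (1.26, adjusted p = 0.0764), neither of which was called. The summed level of the list was 11.56 to 11.67 in CC063/Unc and 10.74 to 12.08 in the others. Of 15 sinusoidal endothelial markers, only the scavenger receptor *Stab1* was called, and it was lower (6.51 to 6.81 against a median of 7.26, adjusted p = 0.00033). None of 16 Kupffer cell and macrophage markers and none of 7 lymphocyte and natural killer markers was called, with medians of −0.30 and −0.26. Summed levels of pancreatic acinar (5.09 to 5.21), adipocyte (3.97 to 4.53) and erythroid markers (2.05 to 2.23) in CC063/Unc were within the range of the other mice. Most of these markers were too dim for the main test: 1 of 6 acinar genes on the array and no adipocyte or erythroid gene was tested. The erythroid value is that of 1 gene. These sums therefore say little about small amounts of these tissues.

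Among genes too dim for the main test, 249 entered when a strain median above the minimum sufficed, and 41 of these were higher in CC063/Unc. Since a gene could enter through its level in CC063/Unc itself, these values are a description. The 6 with the largest differences were *Krt20*, a keratin of intestinal and other surface epithelia, *Nat8*, *Capsl*, *Tmem45b*, *Hapln1*, a link protein of the extracellular matrix, and *Sprr1a*, a small proline-rich protein of squamous epithelia. *Krt20* was 5.85 and 7.17 in the HS mice and 5.62 and 6.97 in the HP mice, whereas the median of the other mice was 2.16, although single mice reached 6.63. *Capsl* was 4.30 to 4.67 in CC063/Unc and at most 3.41 elsewhere. *Hapln1* (2.91 to 5.80) and *Sprr1a* (2.98 to 5.28) varied most among the 4 mice, with HS mouse 1 lowest in both.

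Neighbouring Cyp2j genes were lower together. *Cyp2j6*, *Cyp2j9* and *Cyp2j5*, epoxygenases and hydroxylases of arachidonic acid in mouse, are adjacent among the tested genes, and all 3 were lowest in CC063/Unc. *Cyp2j6* was 5.62 and 4.91 in the HS mice and 6.32 and 6.47 in the HP mice and did not fall below 6.63 in any other mouse (difference −1.52 ± 0.14, adjusted p = 6.82e-15). *Cyp2j9* was 2.94 to 3.79 against at least 3.90 (difference −1.50 ± 0.23, adjusted p = 5.8e-07). Its CC063/Unc values lay not far above the array medians, so that the size of this difference is no exact measure of transcript. *Cyp2j5*, whose intensity was 10.45 to 11.05 against a median of 11.28, differed by −0.53 ± 0.08 (adjusted p = 1.84e-07). Of 12 tested genes of the Cyp2d, Cyp2e and Cyp2j list, these 3 were lower and 1 was higher: *Cyp2u1* (7.22 to 8.61 against 5.62, adjusted p = 0.032), for which CC012/GeniUnc was above CC063/Unc and whose call was lost without each of the 4 mice.

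Other drug-metabolising families were split. Of 12 tested Cyp2c genes, 3 were lower: *Cyp2c38*, *Cyp2c69* (4.79 to 7.37 against a median of 8.68, adjusted p = 0.0348, and up to 0.239 without 1 mouse) and *Cyp2c70*, which makes muricholic acids in mice (10.79 to 11.21 against 11.78, adjusted p = 2.68e-07). Of 15 Cyp3a and Cyp4 genes, *Cyp4a14*, *Cyp3a13* and *Cyp4f13* were lower and *Cyp4a12b* higher (5.51 and 5.30 on HS, 6.20 and 6.26 on HP, median of the others 4.15). *Cyp4f13* was called in 2 of the 4 fits without 1 mouse (highest adjusted p 0.155) and not with strain as a random block (0.307). *Cyp4a12b* and *Cyp4a14* are adjacent among the tested genes and were called in opposite directions. Of 12 carboxylesterases, *Ces2b* and *Ces1b* were higher and *Ces1e* lower. The call of *Ces1b* was lost without each of the 4 mice. Of 17 flavin-containing monooxygenases and aldehyde dehydrogenases, 3 were lower: *Aldh1l1*, of folate metabolism (adjusted p = 1.79e-05), *Fmo4* and *Fmo1*. With strain as a random block only *Aldh1l1* was called (adjusted p = 0.0101, against 0.0748 for *Fmo4* and 0.098 for *Fmo1*), and *Fmo1* was also lost without HS mouse 2 (0.0585). Of 15 tested sulfotransferases of the list, *Sult3a1* was lower (7.46 to 8.40 against 10.48, adjusted p = 0.0357), and its call was lost without each of the 4 mice. Its neighbour *Sult3a2*, which is not in the list, was also called lower (difference −3.225, adjusted p = 0.0138). None of 7 Cyp2a and Cyp2b genes and none of 10 UDP-glucuronosyltransferases was called. Members of these families resemble each other in sequence, so that signal may be shared between paralogs.

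Whether sex-biased liver genes shifted toward a male or a female pattern was not tested. Of 24 tested genes of the growth hormone and sex-biased list, *Cyp7b1* and *Cyp4a12b* were higher and *Sult3a1* lower. The list's median difference was 0.01. The list was not split into male-biased and female-biased genes, so that opposite shifts could cancel in this median. *C4a*, described above as produced mainly in males, was also higher (difference 4.98). *Cyp2d9* (difference −1.68, adjusted p = 0.142) and *Hsd3b5* (0.03, adjusted p = 0.992), both male-biased in mouse liver, were not called.

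Central metabolism was close to the panel. Of 28 genes of fatty acid oxidation and PPAR alpha targets, *Cyp4a14* and *Cpt2*, the inner carnitine palmitoyltransferase, were lower and none was higher, with a median of −0.10. *Cpt2* was 8.29 to 8.45 against 8.88 (adjusted p = 0.0171), and was called neither with strain as a random block (adjusted p = 0.324) nor without any 1 of the 4 mice. The other targets included *Cpt1a* (difference 0.00, adjusted p = 0.994), *Ehhadh* (−0.08, adjusted p = 0.898) and *Acot1* (−0.04, adjusted p = 0.983). Of 54 genes of amino acid breakdown, *Bhmt2*, a betaine-homocysteine methyltransferase paralog, and *Afmid*, of tryptophan breakdown, were lower. They are 3.7% of that list, against 4.21% of all genes called. Neither was called with strain as a random block (adjusted p = 0.0675 and 0.136). Of 55 tested nuclear-encoded respiratory chain subunits of the list, only *Uqcrc1*, a core subunit of complex III, was called (8.87 to 9.19 against 9.76, difference −0.75 ± 0.11, adjusted p = 3.53e-07). The list is not complete: *Ndufc1*, the complex I subunit named above, is outside it and was called lower (difference −1.28, adjusted p = 3.16e-09). *Fech*, the last enzyme of haem synthesis, was lower (7.96 to 8.32 against 8.73, adjusted p = 3e-05), and with *Hamp* made up the 2 calls among 20 genes of iron and haem handling.

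Single calls were made in several other lists. In those named next with 1 call, 3.7% to 8.33% of tested genes were called, against 4.21% of all genes. A single call therefore does not mark a list as a whole. *Apon* was lower among 27 apolipoprotein and lipoprotein genes, *Gsta4* higher among 24 glutathione S-transferases and Nrf2 targets, *P4hb*, a disulphide isomerase, higher among 26 genes of endoplasmic reticulum folding, and *Cdh1*, or E-cadherin, higher among 12 periportal genes. Of these, *P4hb* and *Cdh1* were called in 0 and *Apon* and *Gsta4* in 1 of the 4 fits that left out 1 mouse, and none of these 4 genes was called with strain as a random block (adjusted p of 0.397 for *Apon*, 0.154 for *Gsta4*, 0.353 for *P4hb* and 0.349 for *Cdh1*). Of 20 MHC genes, *H2-Ea* was higher and the nonclassical class I gene *H2-T23* lower (6.19 to 6.75 against 8.01, adjusted p = 0.026, also lost without each mouse), while the partner chain *H2-Eb1* was not called (difference −0.10, adjusted p = 0.963). *C4a* was the single call among 20 complement genes.

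No member was called, in either direction, of the lists for cholesterol synthesis (19 tested, median −0.45, 18 of 19 differences negative), interferon response (28 tested, median −0.26), lipogenesis (19 tested, median −0.15), gluconeogenesis, glycolysis and fructose use, urea cycle, coagulation, serine protease inhibitors, lipid droplets, insulin and IGF signalling, heat shock, cytosolic ribosomal proteins, pericentral zonation, the cell cycle or the clock. The clock lists leaned in opposite directions, with all 5 genes that peak with *Bmal1* at positive differences and all 9 genes in antiphase at negative differences. The clock score, the mean standardised level of the former minus that of the latter, was 0.50 and 2.46 in the HS mice and −1.20 and 2.55 in the HP mice, and −3.23 to 4.87 in the others. With this score as a covariate, 450 genes were called, 409 of them shared with the 460.

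Some called genes lay in local runs. Of 459 called genes among 10888 tested genes placed in the RefSeq table, 82 lay next to another called gene in the order of tested genes. In all, 4 runs of 4 neighbours were found. Some neighbours are paralogs, such as the Cyp2j genes, and whether these counts exceed those of an arbitrary gene order was not tested. In the run of *Zcchc9*, *Msh3*, *Fam151b* and *Zfyve16*, all were highest of 22 strains in CC063/Unc, with differences of 1.20, 0.91, 0.71 and 0.77. *Zcchc9* was 7.73 to 7.90 against at most 7.24 in the other mice (adjusted p = 2.73e-12), and *Msh3* 6.65 to 7.07 against at most 6.38 (adjusted p = 2.09e-11). The run of *Zcchc9* did not hold as a run of 4 with strain as a random block, where the adjusted p of *Fam151b* was 0.182. In the run of *Cibar1*, *Otud6b*, *Pip4p2* and *Gm11837*, all were lower, with differences of −1.33, −0.85, −0.60 and −1.10. All 4 stayed called with strain as a random block (highest adjusted p 0.0408, for *Pip4p2*). The other runs were mixed: *Mfsd8* was higher and *Abhd18*, *6430590A07Rik* and *Larp1b* lower, and *Vamp8* was higher and *Vamp5*, *Ggcx*, the gamma-carboxylase of clotting factors, and *Elmod3* lower. Neither mixed run held as a run of 4: with strain as a random block the adjusted p was 0.0968 for *6430590A07Rik*, 0.47 for *Larp1b*, 0.485 for *Vamp8* and 0.297 for *Ggcx*, and of the 4 fits without 1 mouse these were called in 2, 1, 1 and 0.

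Within CC063/Unc, 3 genes (0.0274% of those tested) differed between the HP and HS diets, all higher on HP, from a fit to the 44 groups of strain and diet. Without adjustment, 547 genes had p under 0.05, of which 179 were higher on HP. *Cyp2j6*, the gene with the smallest p in the strain comparison, was 5.62 and 4.91 on HS and 6.32 and 6.47 on HP (difference 1.13 ± 0.21, adjusted p = 0.0106). *Bpifb9a*, of the family of bactericidal/permeability-increasing fold proteins, was 3.79 and 3.19 on HS and 4.99 and 5.34 on HP (difference 1.68 ± 0.34, adjusted p = 0.02). *Gm10639* was 4.07 and 3.69 on HS and 6.01 and 6.14 on HP (difference 2.20 ± 0.46, adjusted p = 0.0305). The HP and HS mice did not overlap in any of the 3, but this held for 3548 genes (32.4%) with 2 mice per diet. All 3 calls were lost without HS mouse 2, with adjusted p of 0.892, 0.717 and 0.635, and also without HP mouse 2. *Gm10639* was called in none of the 4 fits that left out 1 mouse, and with array weights 1 gene was called.

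The reference promoter of *Cyp2j6* (GRCm38.p6, chr4:96553602-96553901, minus strand) is shown because this gene was called both for strain and for diet, with CACGTG in capitals.
Cyp2j6: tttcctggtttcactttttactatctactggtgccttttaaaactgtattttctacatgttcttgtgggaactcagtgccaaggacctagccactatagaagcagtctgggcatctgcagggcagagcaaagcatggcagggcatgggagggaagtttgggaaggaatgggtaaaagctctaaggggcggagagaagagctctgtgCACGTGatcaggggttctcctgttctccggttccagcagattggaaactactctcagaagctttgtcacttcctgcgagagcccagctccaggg
The motif matched 1 time in this window.

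The genes that come next in p were not called. On the side higher on HP they were *Gm14403* (difference 2.02, adjusted p = 0.107), *2210418O10Rik*, *Trhde*, *Mcam* and *H2-Q1*, with adjusted p up to 0.315. On the side lower on HP no gene was called, and the smallest p belonged to *1700052K11Rik* (5.31 and 5.70 on HS, 3.89 and 4.65 on HP, adjusted p = 0.0765), *Aox3*, an aldehyde oxidase (difference −0.97, adjusted p = 0.167), *Car7*, a carbonic anhydrase (−1.18, adjusted p = 0.184), *Dctn1*, *Hmgxb4*, *Fcsk*, *Faim* and *Rfxap*. *Aox3* was also lower on HP in all 21 other strains, by −0.97 to −0.02, so that CC063/Unc lay at the edge of that range.

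The diet difference of CC063/Unc passed the test against that of the other strains for 2 genes (0.0183%), neither of which held in all alternatives, and 402 genes had an unadjusted p under 0.05. *Bpifb9a* differed by 1.68 between diets in CC063/Unc and by −0.10 in the other strains, a difference of 1.77 (adjusted p = 0.0184), and the diet differences of the other strains ran from −0.52 to 0.48. *Cyp2j6* differed by 1.13 in CC063/Unc and by 0.10 in the others, a difference of 1.03 (adjusted p = 0.0454), and no other strain exceeded 0.56. *Gm10639* was also higher on HP in the other strains (difference 0.50, adjusted p = 6.03e-06), in 19 of 21, and the test of its diet difference between CC063/Unc and the others did not pass (adjusted p = 0.44). Of the 4 fits that left out 1 mouse, *Bpifb9a* was called in 2 (highest adjusted p 0.776) and *Cyp2j6* in 1 (highest adjusted p 1). With array weights neither was called, and with arrays centred on their median *Cyp2j6* was not.

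**Figure D4:**
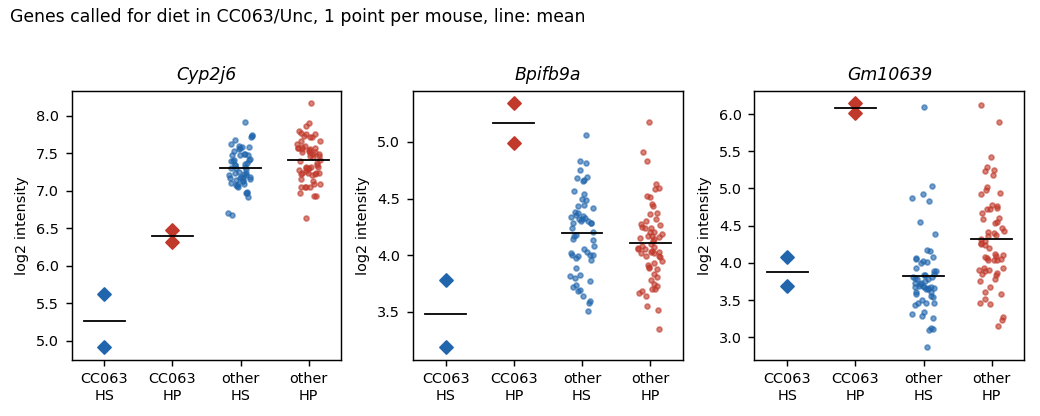
Log2 intensity of the 3 genes called for diet in CC063/Unc, in each CC063/Unc mouse (diamonds) and each other mouse (circles), by diet; the line is the mean. All 4 CC063/Unc mice lie below the other mice for *Cyp2j6*, HS mouse 2 is lowest for *Bpifb9a* (3.19), and the *Gm10639* values of 6.01 and 6.14 on HP lie beside the highest of the other mice.

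In the 21 other strains, with far more mice, more genes were called, with 1248 (11.4%) higher and 1196 (10.9%) lower on HP. The median SE of the diet difference was 0.237 in CC063/Unc and 0.044 in the others. The counts of calls are therefore not comparable, and the diet genes of the other strains were chosen in a fit without CC063/Unc and read in CC063/Unc. Of 2537 such genes, 70.7% differed in the same direction in CC063/Unc, against 58.5% of all genes. The share was 64.8% of 1281 genes higher on HP and 76.8% of 1256 lower on HP, and 93% (66 of 71) where the difference in the other strains was at least 0.5. It was 56.8% without HP mouse 1 and 63.7% without HS mouse 2. Across all genes the diet differences of CC063/Unc and of the other strains correlated at r = 0.354, a description only, since genes are not independent replicates.

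The 20 genes with the smallest diet p in the other strains all differed in the same direction in CC063/Unc. The HP and HS mice did not overlap in 17, and 13 had an unadjusted p under 0.05, but none was called. Of all genes, 21.2% had the same direction without overlap, and 400 of 10937 had the same direction and an unadjusted p under 0.05. *Slc22a7*, an organic anion transporter, was 9.07 and 8.87 on HS and 7.44 and 8.17 on HP in CC063/Unc, a difference of −1.17 ± 0.47, beside −1.04 ± 0.09 in the other strains. *Acmsd*, which diverts tryptophan breakdown from nicotinamide synthesis, was 6.37 and 5.93 on HS and 7.39 and 8.36 on HP (difference 1.73 ± 0.55, beside 1.15 ± 0.10). *Gstt3*, a theta class glutathione S-transferase, was 6.34 and 6.42 on HS and 7.63 and 7.53 on HP (1.21 ± 0.35, beside 0.75 ± 0.06), and its paralog *Gstt2* differed by 0.72 beside 0.69. *Ivd* and *Dbt*, of leucine and branched-chain keto acid breakdown, differed by 0.42 and 0.28, beside 0.40 and 0.36. *Aass*, of lysine breakdown, differed by 0.46 beside 0.40, and *Agxt* and *Abat*, both aminotransferases, by 0.29 and 0.22 beside 0.39 and 0.27. With 2 mice per diet, several of these differences rested on single mice: without 1 mouse that of *Agxt* ranged from 0.046 to 0.535, that of *Dbt* from 0.094 to 0.47, that of *Gstt2* from 0.303 to 1.136 and that of *Abat* from 0.134 to 0.302.

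The genes lower on HP in the other strains included enzymes of sugar and lipid handling. *Gpd1*, glycerol-3-phosphate dehydrogenase, was 9.82 and 9.91 on HS and 9.35 and 9.34 on HP (difference −0.53, beside −0.40), and *Pklr*, the liver pyruvate kinase, differed by −0.43 beside −0.59. *Ces3a* differed by −0.36 (−0.588 to −0.125 without 1 mouse) beside −0.61, *Gna14*, a G protein alpha subunit, by −1.25 beside −0.79, *Tsc22d1* by −0.83 beside −0.61 and *Itih1* by −0.35 beside −0.22. The genes with overlapping mice were *Agxt*, *Dbt* and *Slc17a4*, a phosphate and organic anion transporter (8.61 and 8.60 on HS, 8.11 and 8.77 on HP), whose difference of −0.17 turned to 0.16 without HP mouse 1.

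**Figure D5:**
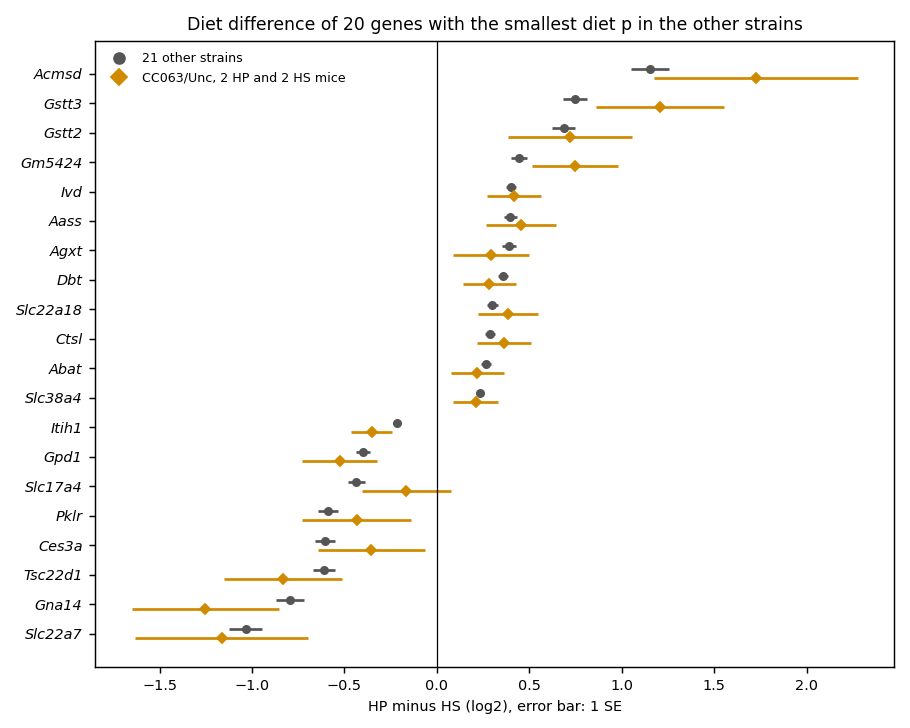
HP minus HS difference (log2, error bar 1 SE) of the 20 genes with the smallest diet p in the other strains, in those 21 strains (grey circles) and in CC063/Unc (orange diamonds). All 20 diamonds lie on the same side of 0 as their circle, with wider errors.

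By list, the diet difference in CC063/Unc was set beside that of the other strains. By this measure, 6358 of all 10937 genes had the same direction in both. Genes of cholesterol synthesis had a median of 0.61 in CC063/Unc and 0.11 in the others, with 16 of 19 in the same direction, and 4 called higher on HP in the other strains. *Sqle*, squalene epoxidase, differed by 1.54 in CC063/Unc (adjusted p = 0.986) and by 0.13 in the others, and *Scd1*, the stearoyl-CoA desaturase of the lipogenesis list, by 1.08 (adjusted p = 0.465) and 0.40. Of 54 genes of amino acid breakdown, 33 were higher and 4 lower on HP in the other strains, and 40 had the same direction in CC063/Unc (median 0.09, beside 0.12). All 13 urea cycle genes had the same direction in both. Of 55 respiratory chain subunits, 24 were higher on HP in the other strains and 43 had the same direction, with a median of 0.18 in CC063/Unc and 0.08 in the others. Kupffer cell and macrophage markers, of which 11 of 16 were lower on HP in the other strains, had medians of −0.26 and −0.24. Among the members of all 48 lists, only *Cyp2j6* was called for diet within CC063/Unc. The cholangiocyte markers did not follow the diet: their sum was 8.01 and 8.32 on HS and 8.26 and 8.20 on HP.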

How the data were processed

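Livers of 123 female CC mice of 22 strains were profiled on Affymetrix Mouse Gene 2.1 ST arrays. Log2 intensities were deposited by the authors after robust multi-array average (RMA) normalization in Affymetrix Expression Console. No source used here names the genome build. The table holds 41345 transcript clusters, of which 23521 carry 1 gene symbol, 1820 several and 16004 none; clusters with several symbols were not named. Symbols were updated through gene IDs in the RefSeq table for GRCm38.p6 (23325 of 23521 matched). As in the study's methods, clusters were kept when their median passed the mean of all cluster medians (4.08), or when over 12.5% of mice passed it. This kept 11398 clusters, and the brightest one per gene gave 10937 genes. Probes carry reference sequence, and the effect of strain variants under probes was not tested. The number of arrays limits the precision.

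CC063/Unc (4 mice) was compared with 61 HP and 57 HS mice by limma 3.58.1 in R 4.3.3 (lmFit, eBayes) with diet as covariate. HP minus HS was estimated from the means of 44 groups of strain and diet, with the other strains weighted equally. P-values were two-sided and adjusted over all genes by the Benjamini-Hochberg method. Mice are separate animals, numbered within groups in accession order. The random block had a correlation of 0.308 within strains. The main strain fit and the diet fit were tested on simulated data with known differences. Alternatives covered the filter, scaling, variance prior, array weights, single mice, the clock score and the treatment of strain.

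The members, the 48 gene lists (910 of 1040 entries matched) and the tests were chosen with earlier results of these data known. Genes were named by rule: the 14 largest called differences each way with CC063/Unc first or last of 22 strains, up to 4 called members per list with the smallest p, 8 genes per direction for diet within CC063/Unc, the 8 smallest interaction p, the 20 smallest diet p of the other strains, runs of at least 4 neighbours, and the 6 largest differences among weakly expressed genes; other genes were named after their values were seen. Figures were drawn with matplotlib.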

Additional observations from a re-analysis of the deposited data

Results flagged for a closer look

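*Bpifb9a* and *Cyp2j6* were picked out because the HP minus HS difference of CC063/Unc differed from that of the other strains, by 1.77 and 1.03 on the log2 scale. In the 4 CC063/Unc mice, 1 value stood apart from the other 3 for *Larp1b* (7.85, the others 8.12 to 8.17) and for *Zfyve16* (5.28, the others 5.78 to 5.86), in both cases HP mouse 1. These are 2 of 69 genes checked for a mouse far from its group by Dixon's criterion, which chance meets in about 1 group of 20.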

How the results depend on the processing

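With 4 mice of 1 strain, the number of calls depended on how strain was treated. CC063/Unc against the other strains gave calls in 4.21% of genes (460) in the fit as reported, 1.23% with a random strain block, 2.2% on means per strain and diet, 13.6% with strain terms and 11.6% with array weights, and 2.08% to 2.92% (228 to 319 genes) when 1 of the 4 mice was left out. Within CC063/Unc, the 3 diet calls became 1 with array weights, 0 in a limma fit to the CC063/Unc mice alone (474 genes at unadjusted p under 0.05) and 0 to 7 without 1 mouse. The 2 calls for a differing diet response became 1 with arrays centred on their median, 1 without a CC071/TauUnc mouse that stood apart in earlier results, 1 in an interaction fitted over mice, 0 in limma with array weights (367 at unadjusted p under 0.05) and 0 to 7 without 1 mouse; both 0 counts of the last kind came without HS mouse 2 (476 and 438 at unadjusted p under 0.05). In the other strains, 2444 diet calls became 1256 without strain terms. The share of diet genes with the same direction in CC063/Unc, 70.7%, was 67.5% with the clock score and 56.8% to 76.9% without 1 mouse. *Slc17a4* (−0.17) ranged from −0.493 to 0.162 without 1 mouse, the latter without HP mouse 1. Of 69 named genes called for strain, 49 to 55 stayed called without 1 mouse, 47 with the random block and 42 on means per strain and diet, and none changed sign. No paired analysis was possible because the labels give no replicate number that groups share.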
